A study of Drosophila melanogaster with 2 samples.

Results

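Open chromatin was described at 8 genes known for setting the temporal fates of mushroom body (MB) neurons: *chinmo*, *lin-28*, *Imp*, *ab*, *Syp*, *mamo*, *br* and *Eip93F*. A peak was assigned to a gene if it overlapped the RefSeq span of that gene in release 6 of the *Drosophila melanogaster* genome, extended by 2 kb on both sides. All 8 symbols matched, among 17684 annotated genes on the 6 chromosome arms with peaks. By this rule, 80 of 17942 peaks in replicate 1 and 66 of 15248 peaks in replicate 2 lay at the 8 genes. Where a peak of replicate 1 and a peak of replicate 2 overlapped, they were joined into 1 region, called a consensus peak. The 8 genes held 63 of 14656 consensus peaks.

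The samples were 2 biological replicates of 1 condition, naive flies of a control genotype, and no groups were compared. The flies carried *UAS-unc84::2xGFP* over *tubGal80(ts)*, a ubiquitous temperature-sensitive repressor of Gal4, together with *P{VALIUM20-mCherry.RNAi}attP2* over *R14H06-Gal4*, in a *w\** background. The regulatory fragment in *R14H06-Gal4*, active in MB neurons, comes from *rut*, and the mCherry RNAi transgene is a control that has no target in the fly. GFP-tagged nuclei were captured on anti-GFP beads from whole head homogenates, and each replicate pooled 50 to 60 flies. Values are thus averages over the captured MB nuclei and over animals. How these nuclei divide among γ, α′/β′ and α/β neurons is not known from these data.

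MB neurons are born in a fixed sequence from the same neuroblasts, γ neurons first, then α′/β′ and last α/β neurons. In the neuroblasts the RNA-binding proteins Imp and Syp form opposing gradients in time, with Imp high early and Syp high late. They set the level of the transcription factor Chinmo in newborn neurons, and the *let-7* and *miR-125* microRNAs repress *chinmo* later. Ecdysone, the steroid hormone of moulting and metamorphosis, induces *br* and *Eip93F*. These roles belong to development, whereas the nuclei here came from adult heads, and a peak marks open DNA, not transcription.

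The ATAC-seq assay inserts adapters into open DNA with a transposase, and peaks are stretches where the sequenced fragments pile up. The fold enrichment of a peak is its fragment pileup at the summit over a local background, as the authors' peak caller gave it. Gene ends are called the low- and the high-coordinate end, since the annotation used here had no strand, and peaks of a gene are numbered from its low-coordinate end. With 1 condition and 2 replicates no test was possible, so every difference is a description that is set beside both replicate values. As a check of the tissue, 6 of 6 MB marker genes (*ey*, *dac*, *toy*, *rut*, *Dop1R2* and *prt*) and 3 of 3 neuronal markers had an end with a consensus peak no more than 500 bp away. So did 1 of 3 glial, 1 of 3 neuroblast, 2 of 4 photoreceptor, 1 of 2 fat body and 0 of 1 muscle markers, against 66.1% of all protein-coding genes, so the counts for MB and neuronal genes are small numbers above a high background. The glial marker among them, *moody*, had the same highest folds (4.638 and 4.505) as the ecdysone signalling gene *usp*, also on X. That peak may therefore be shared by both genes. The highest fold at a marker from outside the MB and neuronal lists was at the photoreceptor opsin gene *Rh3*, with a fold of 6.99 in replicate 1 and 6.69 in replicate 2, and its part in the values below was not tested.

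All 8 temporal fate genes held a consensus peak, against 77.6% of all protein-coding genes under the same rule. Of the 7 that are at least 20 kb long (all but *lin-28*), 7 did, against 98.0% of the 1012 protein-coding genes of that length, so the presence of peaks did not set these genes apart from other long genes. The number of consensus peaks ranged between 1 at *lin-28* and 14 at *Eip93F*. The 7 long genes had a median of 8 consensus peaks, against 5 (quartiles 3 and 8) for all long genes, but they were also longer, with a median of 53998 bp against 37072 bp. Per 10 kb their median was 1.22, against 1.26 (quartiles 0.781 and 1.81) for all long genes. *Eip93F* and *Imp* were densest, with 2.02 and 1.98 consensus peaks per 10 kb, and *br* and *mamo* sparsest, with 0.747 and 0.809.

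**Figure D1:**
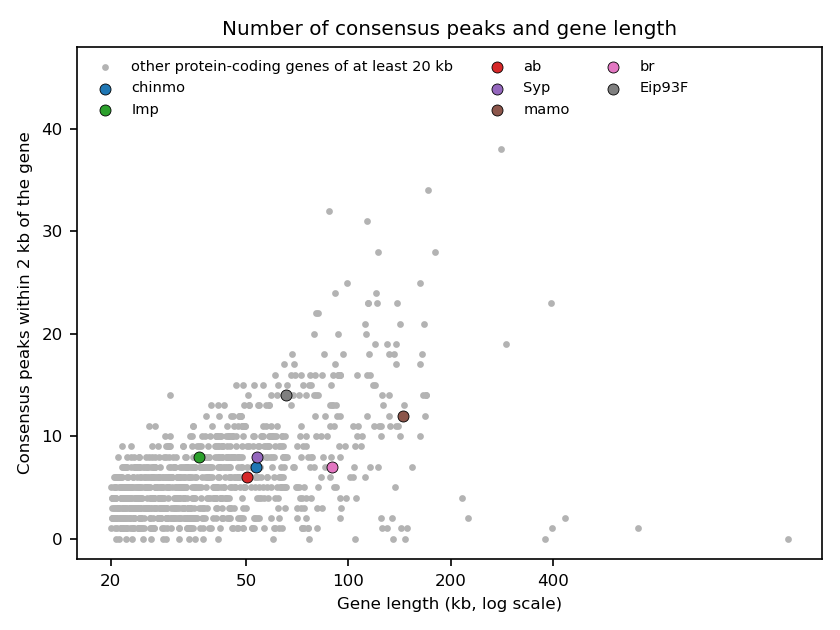
Consensus peaks within 2 kb of each protein-coding gene of at least 20 kb (y axis, number) against gene length (x axis, kb, log scale), with the 7 long temporal fate genes in colour and other genes in grey. *Eip93F* (14 peaks, 7 of them with a mean fold under 2) sits high for its length. *br* (7 peaks) and *mamo* (12 peaks) sit low for theirs, and all lie within the cloud of other genes.

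The 63 peaks lay mostly inside the genes. Of these, 53 lay wholly inside a gene, 7 covered an end of their own gene and 3 lay outside, overlapping the 2 kb flanks. Inside and more than 2 kb from either end lay 49. Any annotated gene end was covered by 10 of the 63 peaks (15.9%), against 42.2% of all consensus peaks. The same shares for peaks at other long genes were not computed, so the part of gene length in these positions was not tested. Among the 7 long genes, 5 had a peak over an own end, against 82.3% of all long genes. The exceptions were *Imp* and *Syp*, the 2 genes of the opposing gradients. The median width was 1029 bp (range 141 to 3383 bp) at the 8 genes and 918 bp over all consensus peaks. Widths are those of the joined regions. In 3 of the 63 regions, 1 replicate had 2 peaks, namely replicate 2 at *br* peaks 4 and 6 and replicate 1 at *Eip93F* peak 4.

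The median fold enrichment at the 8 genes was 2.93 in replicate 1 (range 1.28 to 7.59) and 2.70 in replicate 2 (range 1.29 to 7.56), against 2.75 and 2.64 over all consensus peaks. A mean fold under 2 was seen in 19 of 63 peaks (30.2%), against 31.9% of all. A mean fold of at least 5 was seen in 10 peaks (15.9%), against 13.8% of all, and these 10 lay in 4 genes, *chinmo*, *ab*, *mamo* and *Eip93F*. The strongest peak had a mean fold of at least 5 in 4 of the 7 long genes, against 60.2% of all long genes.

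The replicates gave nearly the same values. Across the 63 peaks, which are not independent replicates, the log2 fold of the replicates had a Pearson correlation of 0.985, against 0.987 over all consensus peaks. The ratio of replicate 1 to replicate 2 had a median of 1.04 (range 0.867 to 1.32), and replicate 1 was higher in 42 of 63 peaks (66.7%), against 66.9% of all. It differed by more than 1.2 times in 4 peaks (6.35%), against 4.18% of all. Summits of the replicates lay a median of 28 bp apart, against 24 bp over all, and within 50 bp of each other in 43 of 63 peaks (68.3%), against 71.2% of all. Of the 80 replicate 1 peaks, 64 (80.0%) overlapped a replicate 2 peak, against 83.4% over the genome. The 16 that did not were weak, with folds of 1.195 to 1.67. They were 7 of 22 replicate 1 peaks at *Eip93F*, 5 of 17 at *mamo*, 2 of 10 at *Syp* and 1 of 8 at both *br* and *chinmo*. The library-wide background pileup was 2.13 times as high in replicate 1 as in replicate 2, and the part of this depth in the weak peaks of replicate 1 was not tested.

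**Figure D2:**
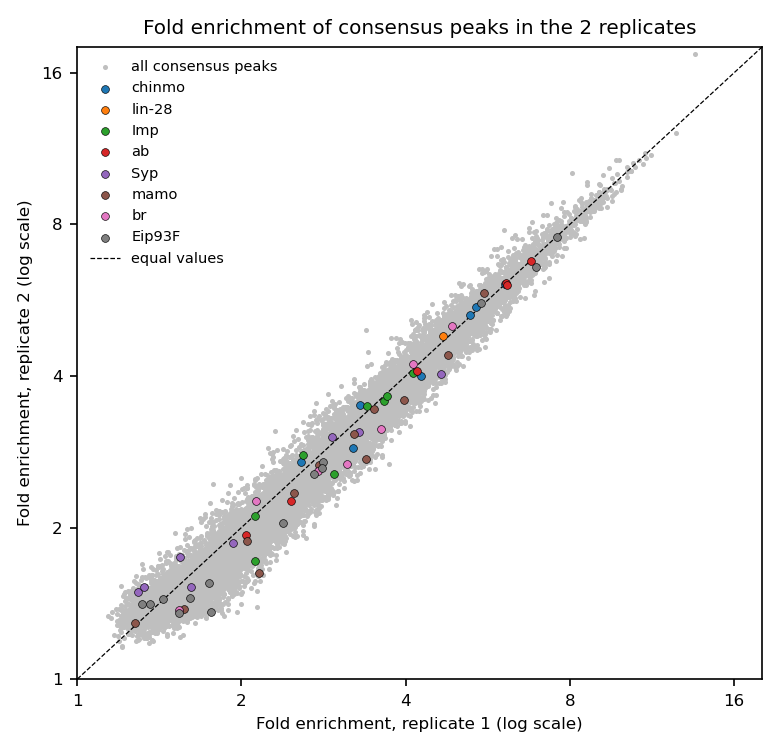
Fold enrichment of each consensus peak in replicate 2 (y axis, log scale) against replicate 1 (x axis, log scale), with the 63 peaks at the 8 genes in colour, all 14656 in grey, and a dashed line at equal values. The coloured points follow the line, with ratios of replicate 1 to replicate 2 between 0.867 and 1.32.

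*chinmo* encodes a BTB zinc-finger transcription factor whose level in newborn MB neurons falls as development goes on, and high levels give γ and low levels α′/β′ fates. It lies on chromosome arm 2L at positions 1651258 to 1704682 (53.4 kb, CG31666) and held 7 consensus peaks. Both of its ends were covered, which was seen at no other of the 8 genes. Peak 1, over the low-coordinate end, had a fold of 5.26 in replicate 1 and 5.30 in replicate 2 and was 2254 bp wide, the widest of the gene. Peak 7, over the high-coordinate end, had folds of 5.38 and 5.49 and also covered an end of the neighbouring gene *cpb*, which begins 220 bp away, so it could belong to either gene. The strongest, peak 3 (2L, 1662336 to 1664054), lay inside the gene, at least 11078 bp from either end, with a fold of 6.09 in both replicates.

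The *chinmo* peaks were gathered in the part near the low-coordinate end. All but peak 7 lay between that end and 23.6 kb into the gene, and the next 29.3 kb (54.9% of the gene) held no consensus peak. A single replicate 1 peak lay there, at 42.7 kb, with a fold of 1.45. Peaks 4, 5 and 6 formed a close group over 5.52 kb with folds of 2.57 to 3.30 in replicate 1 and 2.70 to 3.51 in replicate 2. No *chinmo* peak had a mean fold under 2.

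**Figure D3:**
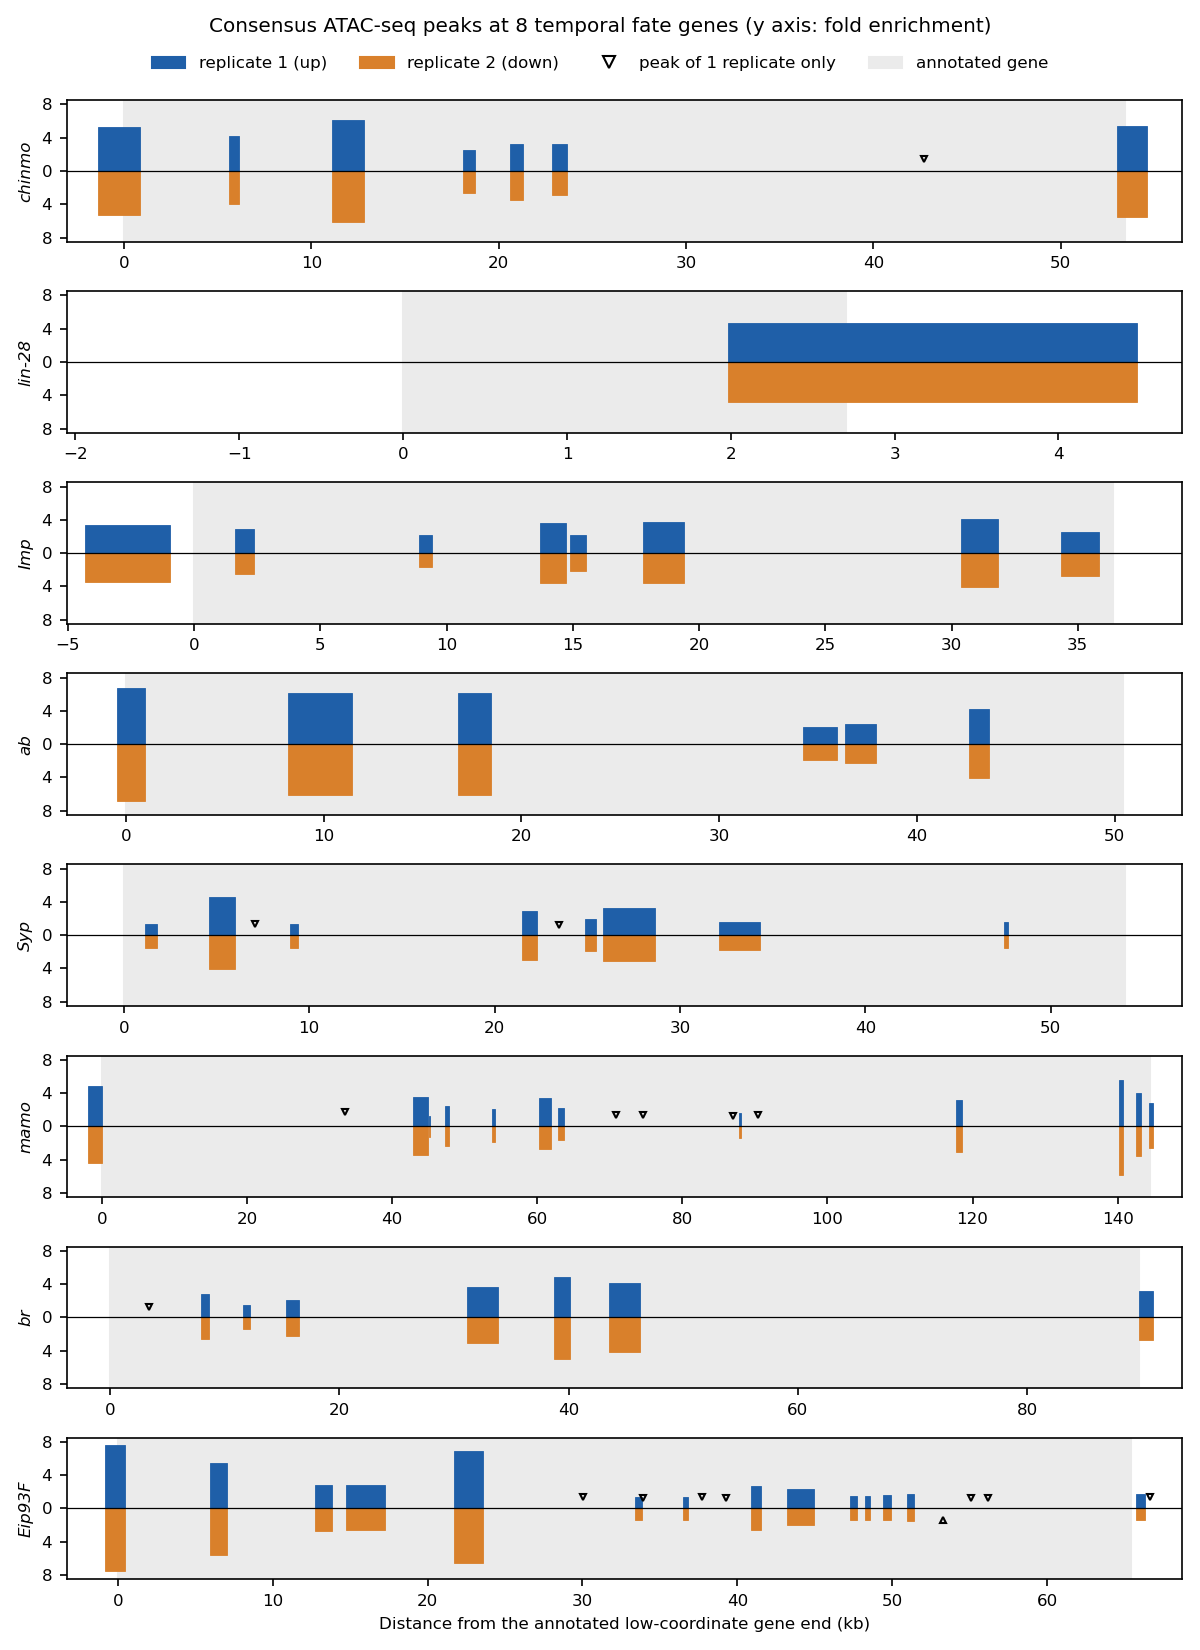
Consensus peaks at the 8 genes, drawn to scale along each gene (x axis, kb from the low-coordinate end, grey area the annotated gene) with fold enrichment on the y axis, replicate 1 upward and replicate 2 downward, and triangles for peaks of 1 replicate. The upward and downward bars mirror each other, *chinmo* and *br* have a wide empty stretch toward the high-coordinate end, and *mamo* has one at the low-coordinate end.

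*lin-28* encodes an RNA-binding protein known in *Caenorhabditis elegans* as a heterochronic regulator that blocks *let-7* maturation. It is short (3L, 5654681 to 5657384, 2.70 kb, CG17334) and held 1 consensus peak of 2497 bp, over its high-coordinate end. The fold was 4.67 in replicate 1 and 4.80 in replicate 2. The neighbouring gene *sif* begins 529 bp away and the same peak covers its end, so the signal cannot be divided between the 2 genes.

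*Imp* encodes the IGF-II mRNA-binding protein of the early neuroblast. It lies on arm X at 10787869 to 10824277 (36.4 kb, CG1691) and held 8 consensus peaks in both replicates, with no peak of 1 replicate only. Neither end was covered, as the nearest peaks lay 938 bp outside the low-coordinate end and 552 bp inside the high-coordinate end. Peak 1, the one outside, was the widest of all 63 (3383 bp), had folds of 3.40 in replicate 1 and 3.49 in replicate 2, and covered an end of *Ant2*, a gene for an ADP/ATP carrier. It also lay within the overlapping gene *sesB*, so it could belong to any of the 3 genes. Peaks 2 to 8, inside the gene, were even in strength, with folds of 2.12 to 4.12 in replicate 1 and 1.71 to 4.06 in replicate 2. The strongest, peak 7 (10818252 to 10819707), had 4.12 and 4.06, and the weakest, peak 3, had 2.12 and 1.71. By the mean of the replicates, the highest fold at *Imp* was the lowest such value among the 8 genes, but in replicate 2 that at *Syp* was lower (4.03).

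*ab* encodes Abrupt, a BTB zinc-finger transcription factor and a known target of *let-7*. It lies on 2L at 11210678 to 11261080 (50.4 kb, CG43860) and held 6 consensus peaks, each called in both replicates. Its peaks fell into 2 groups by strength. Peaks 1 to 3, over 18.9 kb from the low-coordinate end, had folds of 6.12 to 6.80 in replicate 1 and 6.06 to 6.78 in replicate 2, and peaks 4 to 6 had 2.04 to 4.19 and 1.93 to 4.09. Peak 1 covered the low-coordinate end (folds of 6.80 and 6.78) and no other gene end. Peak 2 was 3235 bp wide with folds of 6.12 in both replicates, and its summits lay 1 bp apart. The high-coordinate end overlaps *cmet*, and the nearest *ab* peak lay 6736 bp inside it.

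*Syp* encodes Syncrip, the RNA-binding protein of the late neuroblast. It lies on 3R at 20756729 to 20810726 (54.0 kb, CG17838) and held 8 consensus peaks, of which 5 had a mean fold under 2. As at *Imp*, neither end was covered, the nearest peaks lying 1175 bp and 6283 bp inside the ends. The highest fold, 4.64 in replicate 1 and 4.03 in replicate 2, was at peak 2, which covered an end of the nested gene *CG31195* and could belong to it. Peak 1, the nearest to the low-coordinate end, lay wholly inside *CG31195* and could also belong to that gene. Peak 6 (20782582 to 20785376, 2795 bp) had folds of 3.28 and 3.09. Its pileup was far higher than that of peak 2, with 3359 fragments at the summit in replicate 1 and 1465 in replicate 2, against 1193 and 478 at peak 2. The local background at peak 6 was 4.18 and 4.11 times the library-wide background, so that fold and pileup placed it differently, at rank 5875 by fold and rank 381 by pileup of 14656. The neighbouring peaks 4 and 5 shared this high background (2.87 to 4.48 times over peaks 4 to 6), and the 3 peaks together spanned 7.19 kb in the middle of the gene. At peak 7, also with a raised background, the summits of the replicates lay 653 bp apart, the most of all 63.

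*mamo* encodes a BTB zinc-finger transcription factor that acts downstream of Chinmo in the α′/β′ fate. It is the longest of the 8 genes (X, 13846116 to 13990527, 144 kb, CG45477) and held 12 consensus peaks and 5 peaks of replicate 1 only. The widest was peak 2 (2034 bp). Most were low, and peaks 2 to 9, spread over 75.6 kb of the gene, had folds of 1.28 to 3.50 in replicate 1 and 1.29 to 3.44 in replicate 2. Peaks 10 to 12 stood within 4.69 kb at the high-coordinate end. The strongest of the gene, peak 10 (13986347 to 13986917), had 5.57 and 5.84 and lay 3610 bp inside, whereas peak 12, over the end itself, had 2.78 and 2.66 and also covered an end of *lncRNA:CR44655*. At the other side of the gene the first 42.9 kb held no consensus peak. Peak 1 lay 55 bp outside the low-coordinate end, with folds of 4.79 and 4.40, and covered an end of *AMPdeam*. The largest disagreement of the replicates among the 63 peaks was at peak 7, with 2.15 in replicate 1 and 1.63 in replicate 2. The best supported of the 16 peaks of replicate 1 only was also in *mamo*, at 33.5 kb in the otherwise empty stretch, with a fold of 1.67 and a -log10 q of 20.5, a value reached by 1.51% of the 2975 peaks of replicate 1 only.

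*br* encodes the Broad zinc-finger transcription factors, which ecdysone induces at the onset of metamorphosis. It lies on X at 1575132 to 1664869 (89.7 kb, CG11491), wholly within the annotated span of *Mur2B*, so each of its peaks also lies in that gene. It held 7 consensus peaks. Its strongest peaks stood in the middle, where peaks 4 to 6 had folds of 3.60 to 4.87 in replicate 1 and 3.14 to 5.04 in replicate 2 over 15.0 kb. Peak 5 (1613851 to 1615258) had 4.87 and 5.04, with both summits at the same base. Peak 6 was the widest (2693 bp), as 1 peak in replicate 1 and as 2 peaks covering 2248 bp in replicate 2. The 43.5 kb beyond peak 6 (48.5% of the gene) held no consensus peak. Peak 7, at the high-coordinate end, had 3.12 and 2.68, and it covered an end of *dor* as well. It reached the annotated end of *br* in replicate 2 only. At the low-coordinate end the nearest *br* peak lay 7897 bp inside, apart from 1 of replicate 1 only with a fold of 1.27.

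*Eip93F* encodes E93, an ecdysone-induced transcription factor of adult differentiation and a late temporal factor. It lies on 3R at 21949114 to 22014539 (65.4 kb, CG18389) and held the most peaks, 22 in replicate 1, 15 in replicate 2 and 14 in the consensus. The gene had a strong and a weak part. Peaks 1 to 5, over 24.5 kb from the low-coordinate end, had folds of 2.81 to 7.59 in replicate 1 and 2.63 to 7.56 in replicate 2. Peaks 6 to 14 had 1.31 to 2.72 and 1.35 to 2.55, and 7 of these 9 had a mean fold under 2. Peak 1 (21948255 to 21949608), over the low-coordinate end and no other gene end, had the highest fold at any of the 8 genes, 7.59 in replicate 1 and 7.56 in replicate 2, rank 228 of 14656. Peak 5 (21970790 to 21972712), 21676 bp from that end, followed with 6.93 and 6.57. Peaks 3 and 4 had folds under 3 but stood on a local background of 3.28 to 3.48 times the library-wide one, and their pileups, 2336 and 2257 in replicate 1, exceeded that of peak 2 (1954). Peak 4 was the widest of the gene (2504 bp), as 2 peaks covering 2153 bp in replicate 1 and as 1 peak of 2457 bp in replicate 2. Peak 14 lay outside *Eip93F* and wholly inside the neighbouring gene *Theg*, which begins 158 bp away. From 30.0 kb onward replicate 1 had 7 further peaks and replicate 2 had 1, with folds of 1.23 to 1.37 in replicate 1 and 1.35 in replicate 2.

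In order of the strongest peak by mean fold, *Eip93F* (7.57) came first, then *ab* (6.79), *chinmo* (6.09), *mamo* (5.71), *br* (4.95), *lin-28* (4.74), *Syp* (4.33) and *Imp* (4.09). The replicate values of neighbours in this order overlapped only for *Syp* and *Imp*. Among all long genes, *Eip93F* stood at percentile 89.2 of this measure, *ab* at 79.6, *Syp* at 22.2 and *Imp* at 17.0.

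The order differed where peaks were measured by their summit pileup over the library-wide background, a measure that no local background enters. It was then led by *chinmo*, whose peak 3 stood at 15.1 times the library-wide background in replicate 1 and 16.0 times in replicate 2. *Eip93F* (14.2 and 14.7, peak 1) and *Syp* (13.7 and 12.7, peak 6) followed, then *lin-28* (11.5 and 11.7), *br* (9.82 and 10.5) and *ab* (9.87 and 9.82), of which *br* and *ab* overlapped. *mamo* (6.35 and 6.84, peak 10) and *Imp* (6.19 and 6.38, peak 1) came last and overlapped. *Imp*, *mamo* and *br* lie on the X chromosome. The paper's method pooled male flies, and the part of X copy number in either order or in the percentiles was not tested. Among long genes *Syp* stood at percentile 87.1 by this measure and *chinmo* at 96.2, against 67.6 for *chinmo* by fold. By its mean, *Imp* was last by both measures, but its peak 1 lies outside the gene and could belong to *Ant2* or *sesB*. Inside the gene its highest pileup, at peak 4, was 4.74 times the library-wide background in replicate 1 and 4.45 times in replicate 2. These values did not overlap those of *mamo*. Over all 63 peaks, weak ones included, the summit pileups ran from 322 (95% Poisson interval 288 to 359) to 3687 (3569 to 3808) fragments in replicate 1 and from 157 (133 to 184) to 1843 (1760 to 1929) in replicate 2, and the intervals cover counting error only.

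**Figure D4:**
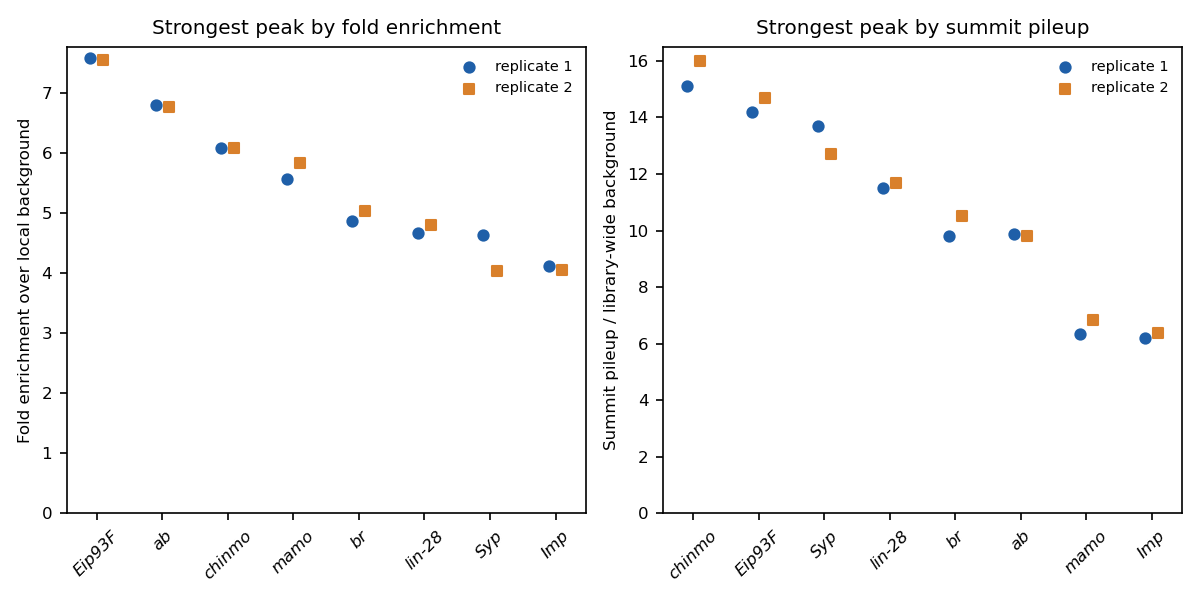
Strongest consensus peak of each gene by fold enrichment over local background (left) and by summit pileup over the library-wide background (right), both replicates shown and genes in falling order of the mean. *Syp* is the seventh of 8 genes on the left, with 4.64 and 4.03, and the third on the right, with 13.7 and 12.7.

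The peaks differed between the genes beyond their number. *chinmo*, *lin-28*, *Imp* and *ab* together held 22 consensus peaks, of which 2 had a mean fold under 2, and 1 peak of replicate 1 only. *Syp*, *mamo*, *br* and *Eip93F* held 41, of which 17 had a mean fold under 2, with 15 peaks of replicate 1 only. Over all consensus peaks 31.9% had a mean fold under 2, and 83.4% of all replicate 1 peaks overlapped a replicate 2 peak. The peaks of replicate 1 only were 7 of 22 replicate 1 peaks at *Eip93F*, 5 of 17 at *mamo* and 2 of 10 at *Syp*, but 1 of 8 at *br*, as at *chinmo*. The 17 were 5 of 8 peaks at *Syp*, 7 of 14 at *Eip93F* and 4 of 12 at *mamo*. At *br* there was only 1 of 7, near the 1 of 8 at *Imp*. A fold under 2 did not always go with a low pileup. *Syp* peak 5 had folds of 1.93 in replicate 1 and 1.86 in replicate 2. Its summit pileup was 8.63 and 8.35 times the library-wide background. The same measure was 4.04 and 3.57 at *Syp* peak 7, and 4.14 and 3.75 at *ab* peak 4. Whether these groups of genes differ by pileup was not tested. The median fold was 3.68 in replicate 1 and 3.60 in replicate 2 for the first 4 genes, against 2.72 and 2.55 for the other 4, and the median width was 1493 bp against 727 bp. Over all consensus peaks these medians were 2.75, 2.64 and 918 bp. This grouping was made with the values known, and no test was made of it.

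Few peaks lay close to the limit of the 2 kb flanks. Of the 3 peaks outside a gene, those at *mamo*, *Eip93F* and *Imp* lay 55, 291 and 938 bp from it at their nearest edge. The *Imp* peak reached past the limit, with its midpoint at -2.63 kb, counted from the low-coordinate end. Just past the limit, a peak lay 2031 bp from *chinmo* with folds of 2.22 in replicate 1 and 1.98 in replicate 2. Others lay 2487 bp from *Eip93F* (1.24 and 1.31) and 2504 bp from *br* (4.44 and 4.33).

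The other genes of the temporal pathway made up 4 lists with 36 genes. Presence of a peak is common, as 77.6% of all protein-coding genes and 98.0% of the long ones had a consensus peak, so the counts below do not set the lists apart. All 13 ecdysone and activin signalling genes had a consensus peak, with a median strongest fold of 6.40. Among them *Eip75B*, an ecdysone-induced nuclear receptor, held 31 consensus peaks, and *ftz-f1*, a nuclear receptor of the prepupal ecdysone response, had folds of 9.49 in replicate 1 and 9.41 in replicate 2 at its strongest. *EcR*, the ecdysone receptor gene, held 22 peaks, the strongest with 5.78 and 5.79. *babo*, the activin receptor gene upstream of *EcR* in MB neurons, held 1 peak with 3.40 and 3.35. The let-7 complex, whose host transcript spans 17.4 kb, held 7 consensus peaks. The strongest, with folds of 4.03 in replicate 1 and 3.59 in replicate 2, was shared by *let-7*, *mir-100* and *mir-125*, so the 4 entries of this list share their value.

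Of the 15 temporal factors of other neuroblasts, 14 had a consensus peak and *tll* had none, with a median strongest fold of 6.76 over the 14. *nub* (10.4 and 10.2) and *D* (10.2 and 9.92) were highest and *cas* (1.61 and 1.77) lowest. The 4 post-transcriptional regulators all had a consensus peak with a mean fold of at least 5 and a median of 5.67. All but *nos* are at least 20 kb long, and 60.2% of all protein-coding genes of that length reached this fold. The largest, *pum*, which encodes a translational repressor, held 34 peaks and had folds of 7.82 and 7.91 at the strongest. For comparison, the median over the 8 temporal fate genes was 5.33, and that over all 10803 protein-coding genes with a peak was 4.09. Among genes of at least 20 kb the median was 5.71 for the 7 temporal fate genes and 5.42 for all, so the temporal fate genes were close to other genes of their length.

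**Figure D5:**
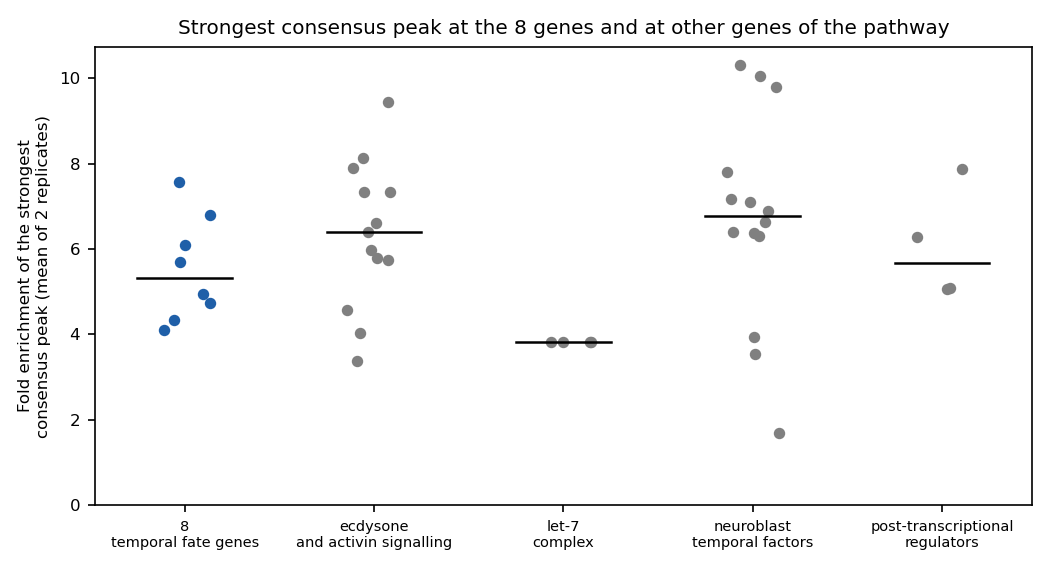
Mean fold enrichment of the strongest consensus peak (y axis) at the 8 temporal fate genes in blue and at the genes of 4 other lists in grey, each point a gene and each bar a median. The 8 genes lie between 4.09 and 7.57, and the 4 let-7 complex entries share the value of 3.81.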

How the data were processed

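Open chromatin was profiled by ATAC-seq from nuclei of the MB, in 2 replicates from separate pools of flies. Per the submitters' processing notes, reads were trimmed with Trimmomatic (version 0.39) and aligned to dm6 with Bowtie2 (version 2.4.1). The authors kept fragments of up to 2000 bp, shifted reads by +4 and -5 bp for the Tn5 cut, and removed duplicates and reads from multiple loci, mitochondria and scaffolds. MACS2 peak calling was done per replicate (version 2.1.2, q of 0.01), so the number of peaks depends on depth. The deposited lists give for each peak the summit offset in bp, the ratio of signal to local background (fold enrichment), p and q as -log10 values, and a score of 10 times the -log10 q.

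Consensus peaks were merged regions with an overlap of at least 1 bp between replicates. The RefSeq gene table used here lists gene starts and ends without strand, transcripts or exons, so exon, intron and UTR positions and promoter motifs were not analysed here. Summit pileup and local background were recovered as the whole pileup that gives both the deposited fold and -log10 p under the Poisson test of MACS2, with a largest difference in -log10 p of 0.00246 in replicate 1 and 0.000952 in replicate 2. The lowest background in a replicate, 244.725 and 115.121 fragments, was taken as library-wide. This measure was chosen after the data were seen. The lists hold no total read counts.

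All 8 genes were named, and for each the strongest peak, peaks over gene ends and the widest peak, with neighbouring genes where a peak could belong to either. Pathway lists were ecdysone and activin signalling, the let-7 complex, neuroblast temporal factors and post-transcriptional regulators. Members and lists were chosen with earlier results of these data known. Alternatives were other flanks, midpoint assignment, -log10 q minimums of 5 and 10, equal peak numbers, a reciprocal overlap of 50%, each replicate alone, a window of 500 bp at gene ends, genes of at least 10 kb and ranking by -log10 q. The consensus and overlap steps were tested on simulated data. The tools were matplotlib 3.10.9, scipy 1.17.1, pandas 2.3.3, numpy 2.4.6 and Python 3.11.15.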

Additional observations from a re-analysis of the deposited data

How the results depend on the processing

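Over 160 comparisons with an alternative, 14 moved and 146 did not, and a change of direction was not among the outcomes scored. A count was taken as moved if it changed by more than 1.5 times, and a fold or density if it changed by more than 1 SD of the 2 replicates. For the highest folds, a replicate alone could not move by this rule, since the mean of 2 values lies within 1 SD of each. These comparisons are thus uninformative, though counted as not moved. The settings of flank, midpoint, -log10 q minimum, equal peak numbers and reciprocal overlap all returned the same highest folds. The strongest peaks had a -log10 q of at least 134.8 in both replicates, so minimums of 5 and 10 could not remove them. Each of the 8 genes kept a consensus peak under every alternative. The number of consensus peaks at the 8 genes was 63, and it was 60 with no flanks, 69 with flanks of 5 kb, 54 and 49 at -log10 q of at least 5 and 10, 58 with equal peak numbers and 56 with a reciprocal overlap of 50%. The protein-coding genes with a peak numbered 10803, and 8528 with no flanks and 12177 with flanks of 5 kb. The median per 10 kb of the long genes was 1.22, and it was 1.01 at -log10 q of at least 10. The median highest fold was 5.33, and it was 10.8 as summit pileup over the library-wide background, a different ratio that is larger by construction. This change of ratio also moved the value at each of the 8 genes, and these are counted among the 14.

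With each replicate alone, the peaks numbered 66 to 80, their median per 10 kb was 1.22 to 1.39, the genes with a peak 8, the gene ends covered 6 to 7, the median highest fold 5.22 to 5.44 and the protein-coding genes with a peak 10771 to 11084. Ranked by -log10 q, the leading peak had a mean fold of 3.44 at *Imp*, 6.12 at *ab* and 3.19 at *Syp*, against 4.09, 6.79 and 4.33. The cause of these moves was not tested. No paired analysis was possible because the series has 1 condition. An SD from 2 replicates is itself a rough estimate.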
